A study of Arabidopsis thaliana with 6 samples.

Results

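CYP86 genes in the model plant Arabidopsis thaliana encode cytochrome P450 enzymes that hydroxylate fatty acids. The set described here holds the 10 genes of subfamilies CYP86A, CYP86B and CYP86C that were chosen by gene identifier, out of 32833 gene identifiers in the tables. They fall into 2 root suberin genes (CYP86A1 and CYP86B1), 4 cutin genes (CYP86A2, CYP86A4, CYP86A7 and CYP86A8) and 4 others (CYP86B2, CYP86C1, CYP86C3 and CYP86C4). Transcripts were counted in a line labelled myb68 myb84 and in its wild type, Col (WT), with 3 libraries per genotype. All plants were untreated and grew on plates at 22 °C in constant light. At 18 days, segments of 2 cm were cut from the top of the primary root, and each library came from a separate pool of at least 40 plants. MYB68 and MYB84 are transcription factors of the R2R3 MYB family, and the study asked about their role in suberin formation. What kind of mutation each gene carries is not stated in the sources used here, and the submitters' design text names MYB86 at one place where the genotype labels name myb84.

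CYP86 enzymes sit in the membrane of the endoplasmic reticulum and place a hydroxyl group on the last (omega) carbon of a fatty acid chain, with electrons passed on by a P450 reductase. The omega-hydroxy acids and the dicarboxylic acids made from them are esterified to glycerol by acyltransferases and polymerised outside the cell. The polymer is suberin in the root endodermis and in the cork (phellem) of older roots, and cutin on the shoot surface.

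The libraries held 19446419 to 55907128 counts. Of the genes in the genotype label, MYB84 had 6.0 ± 1.14 CPM (counts per 1e6 library counts, after scaling by the trimmed mean of M-values, TMM) in myb68 myb84 and 9.92 ± 2.69 CPM in WT (SD, n = 3 each), and MYB68 had 67.8 ± 7.03 CPM in myb68 myb84 and 53.7 ± 7.42 CPM in WT. The MYB84 fall passed the edgeR test (adjusted p = 0.0442) but not with WT 1, WT 3, myb68 myb84 1 or myb68 myb84 2 left out (up to 0.149) or in limma-voom, while the higher MYB68 value did not (adjusted p = 0.0613). MYB68 was called higher in DESeq2 (adjusted p = 0.0311), with no filter on low counts (0.0407), with the replicate block (0.00999), without WT 3 (0.00666) and without myb68 myb84 1 (0.0471). All 8 endodermal markers, including the Casparian strip genes CASP1 to CASP5, and both phellem peroxidase genes were high enough to test. The endodermal list summed to 198 to 229 CPM in myb68 myb84 and to the same range in WT. Of its genes only SCR, a transcription factor gene of the endodermis, was called, while 4.66% of all tested genes were called higher. SCR had 27.4 ± 2.48 CPM in myb68 myb84 and 20.2 ± 0.826 CPM in WT (log2 fold change 0.44, edgeR adjusted p = 0.0110, 0.0508 without myb68 myb84 1). The phellem pair summed to 238 to 281 CPM in myb68 myb84 and 274 to 301 CPM in WT. Its gene PER15 had 85.0 ± 10.4 CPM in myb68 myb84 and 116 ± 19.0 CPM in WT (log2 fold change -0.45, edgeR adjusted p = 0.0514), and DESeq2 and limma-voom each called 1 phellem gene lower. The part of these markers in the CYP86 differences was not tested. Libraries are bulk tissue, so fewer cells of a type and less RNA per cell cannot be told apart.

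The members differ enough in sequence for most exact matches of 50 bases to be assigned to 1 gene. The stretch of 30 coding bases around the cysteine that binds the heme iron, the most conserved part of a P450, is given as an example of differences from CYP86A1. It cannot decide whether reads of the closest relatives can be told apart. The sequences below were read from the TAIR10.1 reference for the 5 genes with a called difference and for CYP86A8, an abundant gene without one, 5′ to 3′ on the coding strand, with the cysteine codon in capitals.
CYP86A1: ttcaacgccggaccaaggactTGCttggga
CYP86B1: tttaacggtggtccacgccttTGTcttggc
CYP86A2: tttaacgccggacctaggatcTGTctagga
CYP86A4: ttcaatgctggaccaaggatcTGCttgggg
CYP86A8: ttcaatgctggccctaggatcTGTctgggt
CYP86C4: ttcaatgctggaccaaggctgTGCatagga
Of these 30 bases, CYP86B1 shares 18 with CYP86A1, CYP86A8 shares 21, CYP86A2 and CYP86C4 share 23 each, and CYP86A4 shares 25. Across the whole coding sequence, identity ran from 50.3% for CYP86A2 and CYP86C3 to 83.6% for CYP86C3 and CYP86C4. The next closest pairs were CYP86A2 and CYP86A4 at 82.4% and CYP86B1 and CYP86B2 at 77.1%. Of all windows of 50 bases in the exons, 1 of 2117 in CYP86A2 and 1 of 2225 in CYP86A4 occurred elsewhere in the genome, and 0 did in the other 8 genes.

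Levels differed widely within the family. Per kilobase of annotated exon, CYP86A1, the hydroxylase of long-chain fatty acids in root suberin, averaged 82.0 ± 7.35 CPM per kb in myb68 myb84 and 120 ± 5.16 CPM per kb in WT (SD, n = 3 each). In WT it ranked 795 among 20827 tested genes with an annotated length. It stood 6.59 times above the next member in WT, CYP86A2. The next 3 members lay close together in WT, with CYP86A2 at 18.2, CYP86B1 at 16.4 and CYP86A8 at 15.04 CPM per kb. CYP86A2 and CYP86B1 were barely separated in the WT libraries (17.36 for CYP86A2 in WT 2 against 17.34 for CYP86B1 in WT 3). CYP86B1 and CYP86A8 overlapped in WT, and in myb68 myb84 neither pair was separated. CYP86A8 ranked 2 in each myb68 myb84 library and 4 in each WT library. A lower tier held CYP86A4 (2.33 CPM per kb), CYP86B2 (2.20) and CYP86C4 (2.09) in WT, without separation between neighbours, and CYP86C3 below them at 0.979 CPM per kb. Genes on the opposite strand overlap 909 bases of CYP86A2 and 685 bases of CYP86C3. How reads there were counted is not known, so the levels per kb of CYP86A2 and CYP86C3, and their places in this order, carry that limit.

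CYP86A7 and CYP86C1 were near or at 0. CYP86A7 had 2, 0 and 2 counts in myb68 myb84 libraries 1, 2 and 3, and 12, 0 and 0 counts in WT libraries 1, 2 and 3. All its WT counts thus came from 1 library, with a 95% Poisson interval of 6.20 to 20.96 counts. CYP86C1 had 0 counts in all 6 libraries, where 3 counts would be 0.0535 CPM in the deepest and 0.152 CPM in the shallowest. CYP86C1 also shares 347 bases with AT1G24545 on the opposite strand, and how reads there were counted is not known. Neither gene passed the filter on low counts, so 8 of the 10 members were tested.

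**Figure D1:**
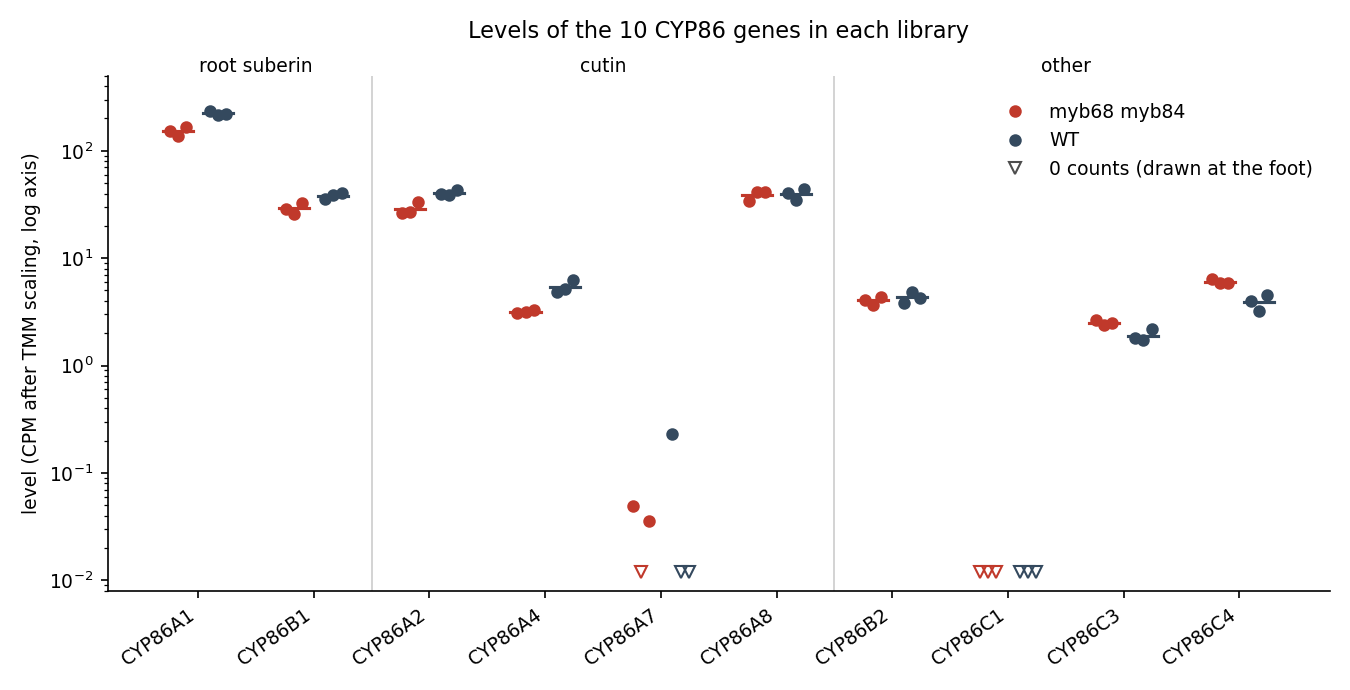
Level of each CYP86 gene in CPM after TMM scaling (log axis), with 1 point per library, myb68 myb84 left of WT, a bar at the mean of 3 libraries and open triangles for 0 counts. CYP86A1, CYP86B1, CYP86A2 and CYP86A4 are lower in all myb68 myb84 libraries than in any WT library, and CYP86C3 and CYP86C4 are higher.

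The genotypes differed in 5 of the 8 tested members. CYP86A1, CYP86B1, CYP86A2 and CYP86A4 fell in myb68 myb84, CYP86C4 rose, and CYP86A8, CYP86B2 and CYP86C3 did not pass. The test was edgeR's quasi-likelihood test over all 20941 tested genes, with Benjamini-Hochberg adjustment and calls at an adjusted p under 0.05. Among all tested genes 8.3% were called, 3.65% lower and 4.66% higher. Only 2 members were called lower in the fits that left out the myb68 myb84 library 1 or 2. The libraries of the genotypes did not overlap for 4 lower and 2 higher members, against 13.2% and 14.1% of all tested genes. The median log2 fold change was -0.23 over the 8 tested members and -0.0026 over all tested genes.

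The root suberin members were both lower. CYP86A1 (AT5G58860, chr5:23765791-23768111, minus strand, 2 exons) had 154, 139 and 166 CPM in myb68 myb84 libraries 1, 2 and 3, and 234, 216 and 220 CPM in WT libraries 1, 2 and 3. Its highest myb68 myb84 library was well below its lowest WT library. The level in myb68 myb84 was 68.5% of that in WT, a log2 fold change of -0.55 ± 0.08 (SE, edgeR adjusted p = 0.00108). This call stayed in each fit with 1 library left out, with log2 fold changes of -0.61 to -0.48 and an adjusted p up to 0.00898.

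CYP86B1 (AT5G23190, chr5:7803141-7805968, minus strand, 2 exons) makes the very-long-chain omega-hydroxy acids of suberin. It had 28.6, 26.0 and 32.6 CPM in myb68 myb84 libraries 1, 2 and 3, and 35.8, 38.5 and 40.3 CPM in WT libraries 1, 2 and 3. The groups were separate by a narrow margin between myb68 myb84 3 and WT 1. The log2 fold change was -0.39 ± 0.09 (SE, edgeR adjusted p = 0.0209). The call was lost on omission of WT 2 (adjusted p = 0.0537), of WT 3 (0.0513) and of the myb68 myb84 libraries 1 (0.0719) and 2 (0.0954), while the log2 fold change stayed between -0.48 and -0.31 over all fits with 1 library left out.

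The cutin members split. CYP86A2, also known as ATT1, is needed for normal cutin in leaves. Its gene (AT4G00360, chr4:160643-163023, plus strand, 2 exons) had 26.4, 26.7 and 33.4 CPM in myb68 myb84 libraries 1, 2 and 3, and 39.3, 38.5 and 43.0 CPM in WT libraries 1, 2 and 3. No libraries overlapped, and the log2 fold change was -0.48 ± 0.10 (SE, edgeR adjusted p = 0.00923). The call stayed with any 1 library left out (adjusted p up to 0.0494). The 3′ end of CYP86A2 shares 127 bases with ANTR2 on the opposite strand, which had 14.6 ± 0.264 CPM in myb68 myb84 and 11.1 ± 0.294 CPM in WT and so differed in the other direction. CYP86A2 also overlaps AT4G03585, a long non-coding RNA gene with 0 counts in every library. Without a stated strand setting, reads of these genes cannot be told apart where they overlap.

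CYP86A4 (AT1G01600, chr1:218834-221286, plus strand, 2 exons) acts in cutin synthesis in flowers. It had 3.07, 3.12 and 3.28 CPM in myb68 myb84 libraries 1, 2 and 3, and 4.88, 5.14 and 6.25 CPM in WT libraries 1, 2 and 3. The myb68 myb84 libraries 1, 2 and 3 rested on 125, 100 and 184 counts and were all below WT. At such low counts their SD of 0.110 CPM does not show close agreement of the pools. The level in myb68 myb84 was 58.2% of that in WT, at a log2 fold change of -0.77 ± 0.17 (SE, edgeR adjusted p = 0.0157). The call ended without myb68 myb84 1 (adjusted p = 0.0544), 2 (0.0528) or 3 (0.0511), while the value stayed between -0.84 and -0.66.

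CYP86A8, known as LACERATA for the fused and torn organs of its mutant, did not follow. The gene (AT2G45970, chr2:18912095-18914739, minus strand, 1 exon) had 34.3, 41.1 and 41.7 CPM in myb68 myb84 libraries 1, 2 and 3, and 40.1, 34.9 and 44.3 CPM in WT libraries 1, 2 and 3. These ranges overlapped almost fully, and the log2 fold change was -0.03 ± 0.10 (SE, edgeR adjusted p = 0.916). Its sign changed without WT 3 (0.05) or without myb68 myb84 1 (0.06). The gene ends 112 bases from the end of PIP1B, an aquaporin gene on the opposite strand, which was chosen after its values were seen. PIP1B averaged 1641 ± 92.5 CPM in myb68 myb84 and 1084 ± 125 CPM in WT. Its part in the CYP86A8 counts was not tested.

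Of the other members, the neighbours CYP86C3 and CYP86C4 were both higher in every myb68 myb84 library than in any WT library. They lie 1547 bases apart on the same strand of chromosome 1. CYP86C4 (AT1G13150, chr1:4481875-4483751, minus strand, 1 exon) had 6.33, 5.86 and 5.92 CPM in myb68 myb84 libraries 1, 2 and 3, and 4.0, 3.23 and 4.52 CPM in WT libraries 1, 2 and 3. The log2 fold change was 0.63 ± 0.17 (SE, edgeR adjusted p = 0.0348). This call rested on all libraries but WT 3: it ended when WT 1, WT 2 or any myb68 myb84 library was left out, at adjusted p-values of 0.0854 to 0.107. The log2 fold change was 0.52 to 0.73 over the 6 fits with 1 library left out.

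CYP86C3 (AT1G13140) had 2.65, 2.37 and 2.51 CPM in myb68 myb84 libraries 1, 2 and 3, and 1.81, 1.71 and 2.18 CPM in WT libraries 1, 2 and 3. Its log2 fold change of 0.41 ± 0.23 did not pass (SE, edgeR adjusted p = 0.315). An annotated gene with 0 counts in every library, AT1G13143, lies within CYP86C3 on the opposite strand over 685 bases. CYP86B2 (AT5G08250), the closest relative of CYP86B1, had 4.07, 3.68 and 4.35 CPM in myb68 myb84 libraries 1, 2 and 3, and 3.82, 4.83 and 4.27 CPM in WT libraries 1, 2 and 3. The groups overlapped, at a log2 fold change of -0.08 ± 0.17 (SE, edgeR adjusted p = 0.839), and the sign changed without WT 2 (0.01).

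**Figure D2:**
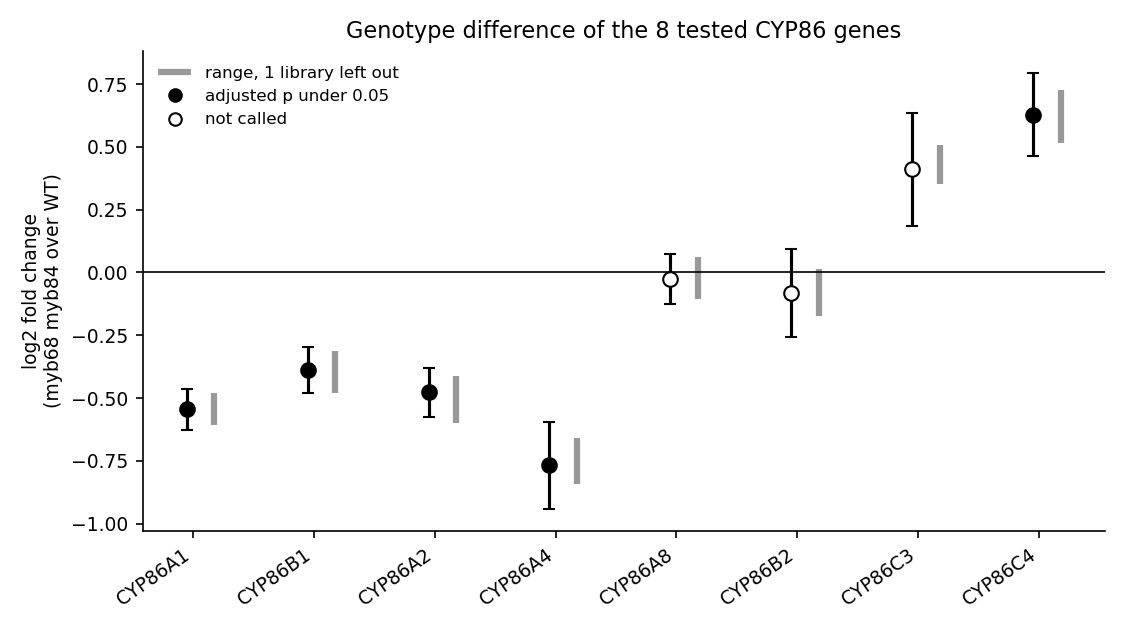
Log2 fold change of myb68 myb84 over WT for the 8 tested CYP86 genes, with points and bars for the value and its standard error (filled where the adjusted p is under 0.05) and grey bars for the range over the 6 fits with 1 library left out. CYP86A1, CYP86B1, CYP86A2 and CYP86A4 lie between -0.77 and -0.39, CYP86A8 and CYP86B2 near 0, and CYP86C3 and CYP86C4 at 0.41 and 0.63.

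The balance within the family was then followed inside each library, where scaling between libraries plays no part. The suberin members held 74.2%, 70.9% and 72.6% of the family's summed CPM per kb in myb68 myb84 libraries 1, 2 and 3, and 77.8%, 77.7% and 75.2% in WT libraries 1, 2 and 3. The 4 other members together held 4.70% to 5.33% in myb68 myb84 and 2.77% to 3.18% in WT. The cutin share was 20.5% to 23.97% in myb68 myb84 and 19.3% to 21.6% in WT, and here the groups overlapped. A share also depends on the other members, of which CYP86A1 was the largest and fell. In TMM-scaled CPM per kb, the cutin members summed to 26.2 to 32.3 in myb68 myb84 and 32.8 to 38.9 in WT. The other members summed to 6.23 to 6.82 in myb68 myb84 and 5.02 to 5.72 in WT.

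Whether CYP86A1 changed more than another member was tested on the log2 ratio of their counts within a library, by a two-sided exact permutation test over 3 against 3 libraries, whose smallest possible p is 0.1. Of the 7 ratios, 5 showed no overlap between the genotypes. CYP86A1 alone already separated them and is part of every ratio, so this count is not independent evidence. The share of other gene pairs without overlap was not computed. CYP86A1 fell relative to CYP86A8 by 0.52, with ratios of 2.17, 1.75 and 1.99 in myb68 myb84 and 2.54, 2.63 and 2.31 in WT on the log2 scale. It fell by 0.46 relative to CYP86B2, by 0.95 relative to CYP86C3, by 1.18 relative to CYP86C4 and by 0.15 relative to CYP86B1. The ratio to CYP86B1 was barely separated, with 2.427 in myb68 myb84 1 against 2.445 in WT 3. Its difference was -0.07 without WT 1. Each of the 5 ratios without overlap had the smallest exact permutation p of 0.1 (adjusted 0.140 over the 7 ratios). None could therefore pass at 0.05 in this design. Relative to CYP86A2 the difference was -0.06 (exact permutation p = 0.6, adjusted 0.6) and relative to CYP86A4 it was 0.22 (exact permutation p = 0.2, adjusted 0.233), and in both the groups overlapped.

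**Figure D3:**
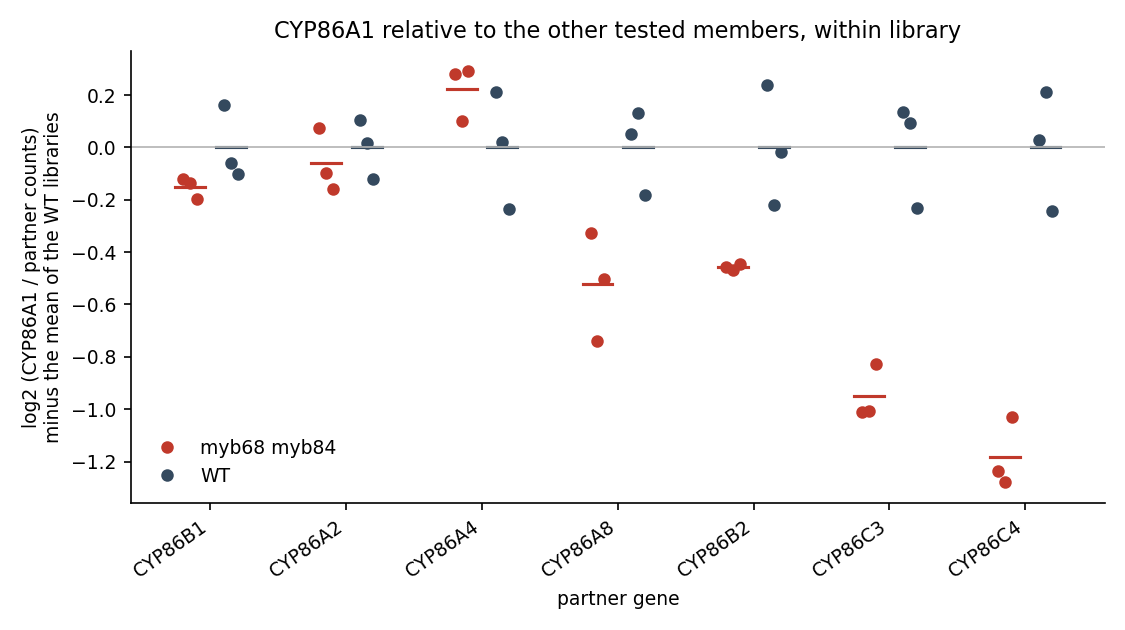
Log2 ratio of CYP86A1 counts to those of each other tested member within a library, drawn relative to the mean of the 3 WT libraries, with 1 point per library, a bar at each mean and myb68 myb84 left of WT. All myb68 myb84 libraries lie below WT for CYP86A8, CYP86B2, CYP86C3 and CYP86C4, with means 0.46 to 1.18 lower, and for CYP86B1 by a smaller margin, and the genotypes overlap for CYP86A2 and CYP86A4.

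The same ratio within the 3 pairs of closest relatives, a comparison chosen after the values were seen, also separated the genotypes. CYP86B1 fell by 0.31 on the log2 scale relative to CYP86B2, with ratios of 2.81, 2.82 and 2.90 in myb68 myb84 and 3.22, 2.99 and 3.23 in WT. CYP86A2 stood 0.28 higher relative to CYP86A4 in myb68 myb84 than in WT, and CYP86C4 stood 0.23 higher relative to CYP86C3. The last ratio rests on low counts, with 45 and 43 for CYP86C3 in WT 2 and WT 3. How often other pairs of genes separate in this way was not computed. Each exact permutation p was 0.1, the smallest possible, and 0.1 after adjustment over the 3 pairs.

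CYP86A2 and CYP86A4 share a run of bases before their starts that no other annotated promoter holds. It is shown because both genes fell in myb68 myb84, and it was looked for after the sequences were seen. The 250 bases before the annotated start, from the TAIR10.1 reference on the plus strand, are given 5′ to 3′ with the shared run in capitals.
CYP86A2: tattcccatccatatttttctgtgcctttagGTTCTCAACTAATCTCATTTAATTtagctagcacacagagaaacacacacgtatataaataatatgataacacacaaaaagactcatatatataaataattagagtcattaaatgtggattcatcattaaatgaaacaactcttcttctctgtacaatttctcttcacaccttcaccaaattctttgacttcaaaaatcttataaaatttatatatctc
CYP86A4: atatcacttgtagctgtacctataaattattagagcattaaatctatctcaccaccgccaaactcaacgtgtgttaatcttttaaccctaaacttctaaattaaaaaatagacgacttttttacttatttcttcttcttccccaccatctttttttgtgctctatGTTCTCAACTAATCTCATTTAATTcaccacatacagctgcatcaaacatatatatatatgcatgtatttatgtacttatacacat
These are chr4:160393-160642 and chr1:218584-218833. The run is 24 bases long and lies at -219 to -196 in CYP86A2 and -85 to -62 in CYP86A4. Of 27443 promoters of nuclear protein-coding genes, taken from 250 bases before to 50 bases after the start, these 2 held it on either strand. The longest run in any other of the 45 pairs of members was 12 bases. A match of letters is a description and not evidence of a bound factor.

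The same windows were searched on both strands for AC elements, which some R2R3 MYB factors bind, in the form ACCTACC, the form written ACCAACC and the form written ACCTAAC. The wider form ACCNANC, which covers those 3 forms, the G-box, whose letters are CACGTG, and the L1 box, whose letters are TAAATGCA, were searched too. CYP86B1 held ACCNANC at 2 places, at -247 and -74, and no other member held any of these letters in its window. In all 27443 promoters the shares were 1.38%, 3.29% and 2.88% for the 3 AC forms in that order, 32.6% for ACCNANC, 7.68% for CACGTG and 1.81% for TAAATGCA.

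CYP86A4 lies beside an acyltransferase gene of cutin synthesis, and CYP86A2 lies farther from another. GPAT4 ends 355 bases from CYP86A4 in the opposite orientation and had 43.2, 41.6 and 51.4 CPM in myb68 myb84 libraries 1, 2 and 3, and 63.1, 52.4 and 62.9 CPM in WT libraries 1, 2 and 3. It fell by 0.39 on the log2 scale (edgeR adjusted p = 0.0275). GPAT8 lies 10929 bases from CYP86A2, with 3 coding genes between, and had 16.6 ± 0.737 CPM in myb68 myb84 and 19.0 ± 1.97 CPM in WT, a log2 fold change of -0.19 that did not pass (edgeR adjusted p = 0.307). GPAT4 lost its call on omission of WT 1 or 3, and of the myb68 myb84 library 1 or 2, with an adjusted p up to 0.118.

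Most tested genes that act with the suberin members were called lower as well. Among all tested genes 3.65% were called lower and 4.66% higher, with a median log2 fold change of -0.0026. Of 13 other genes of suberin synthesis and export, 12 were tested, 9 fell, 0 rose and 3 (KCS2, GPAT7 and ASFT) did not pass. The list median was -0.47. These genes elongate the acyl chains before hydroxylation (KCS20, -0.58), reduce them to alcohols (FAR1, -0.48, FAR4, -0.61, and FAR5, -0.62), join them to glycerol (GPAT5, -0.50) or to caffeic acid (FACT, -0.46). KCS20, FAR1, FAR4, FAR5 and FACT were called in each fit with 1 library left out, and GPAT5 lost its call when myb68 myb84 1 or 2 was left out, with an adjusted p up to 0.0518. The other called genes, the transporter genes ABCG1, ABCG6 and ABCG20, kept their call in only 2, 1 and 0 of these 6 fits. ABCG20 (edgeR adjusted p = 0.0499) also lost it in limma-voom, and ABCG6 lost it with no filter on low counts. Without myb68 myb84 2, 5 of the list were called lower. FAR1, FAR4 and ABCG1 overlap annotated genes on the other strand. The list was chosen with earlier results of these samples known, so its count is not independent evidence of direction.

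Of 10 genes that act with the cutin members, chosen in the same way, 9 were tested, 4 fell, 0 rose and 5 did not pass. Their median log2 fold change was -0.39. The shares over all tested genes were 3.65% lower and 4.66% higher, with a median of -0.0026. GPAT6, an acyltransferase of cutin, fell by 0.57 on the log2 scale, the transporter gene ABCG32 by 0.60, the acyl-CoA synthetase gene LACS2 by 0.37 and GPAT4 as given above. GPAT6 was called in all fits with 1 library left out. The number called was 1 without WT 1, without myb68 myb84 1 or without myb68 myb84 2, and 2 without WT 3. Of 5 factors known to switch on cutin genes, none reached the level for a test, and SHN1, SHN3 and MYB106 had 0 counts in all libraries. MYB106 shares 1579 bases with AT3G01142 on the opposite strand, and how reads there were counted is not known.

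The marker counts below stand beside shares over all tested genes of 3.65% called lower and 4.66% called higher by edgeR. Of 4 markers of the outer cell layer of the shoot, PDF1 (-0.70) and KCS10 (-0.57) fell, as CYP86A2 and CYP86A4 did. ATML1 (-0.46, edgeR adjusted p = 0.134) and PDF2 (-0.46, adjusted p = 0.201) did not pass. The 4 genes summed to 60.8 to 64.3 CPM in myb68 myb84 and 85.5 to 105 CPM in WT, and none was at 0. Markers of green shoot tissue, 6 genes with none at 0, summed to 2821 to 3292 CPM in myb68 myb84 and 1560 to 2550 CPM in WT. Most of this sum was CAB1, which did not pass (0.39, edgeR adjusted p = 0.212), while RBCS1A (0.69) and LHCB3 (0.74) rose. In the other direction, RBCS2B had 2.29 ± 0.544 CPM in myb68 myb84 and 12.2 ± 8.99 CPM in WT, which edgeR did not call (adjusted p = 0.137), and CA1 was at -1.13 (adjusted p = 0.379). DESeq2 and limma-voom each called 1 green marker lower. Of 5 root hair genes, none at 0, 3 were called higher by edgeR, 4 by DESeq2 and 2 by limma-voom. The 5 genes summed to 223 to 270 CPM in myb68 myb84 and 149 to 202 CPM in WT. Lateral root primordium genes (6), root cap genes (3) and xylem genes (5) had 0 calls in either direction by edgeR, DESeq2 or limma-voom, and at an unadjusted edgeR p under 0.05 there were 1 lower and 1 higher xylem gene and 0 in the other lists. The part of any of these in the CYP86 differences was not tested.

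Genes that supply electrons to the enzymes did not pass: the P450 reductase genes ATR1 and ATR2 had log2 fold changes of 0.10 and -0.09 (edgeR adjusted p = 0.473 and 0.515). DESeq2 and limma-voom called 0 of both as well, and 0 had an unadjusted edgeR p under 0.05. ATR1 was still higher in every myb68 myb84 library (348 to 357 CPM) than in any WT library (326 to 334 CPM). Of all tested genes 14.1% were separated in that direction, and for ATR2 the groups overlapped. Of 7 MYB factors known to act on suberin genes, 0 were called in either direction by edgeR, DESeq2 or limma-voom, with a median of 0.08. By edgeR 8.3% of all tested genes were called. At an unadjusted edgeR p under 0.05, 1 of the factors was lower and 1 higher. MYB53, the lower of them, had a log2 fold change of -0.52 (edgeR adjusted p = 0.180) and was called without myb68 myb84 3 (-0.85, adjusted p = 0.0287).

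**Figure D4:**
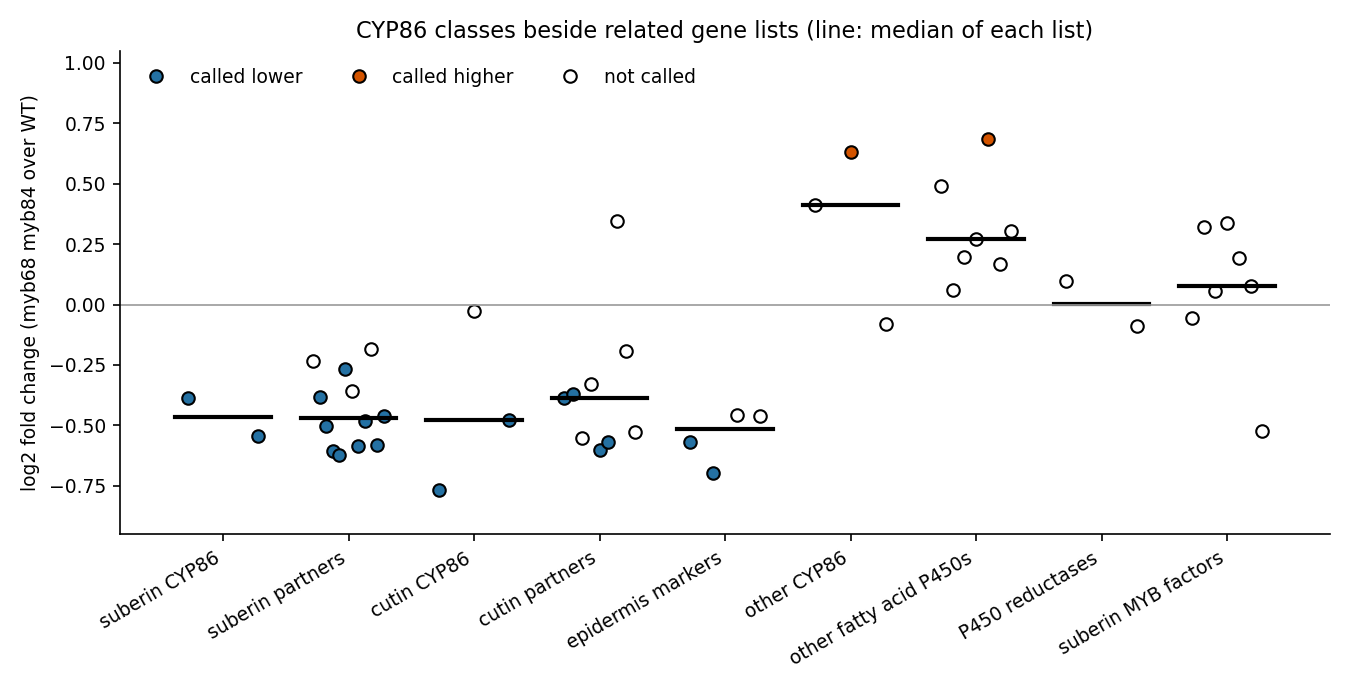
Log2 fold change of myb68 myb84 over WT for each tested gene of the CYP86 classes and of related lists, coloured by its edgeR call, with a line at each list's median and a thin line at the median of all tested genes. List medians lie between -0.48 and -0.39 for the suberin and cutin CYP86 genes and for both partner lists, and the other CYP86 genes have a median of 0.41.

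The genes whose levels ran most like a member's over the 6 libraries were taken from 13277 tested genes with a mean of at least 10 CPM, by Pearson's r of log2 CPM. With only 6 libraries many genes ran close, and 152 reached an r of 0.95 with CYP86A1. The 5 nearest to CYP86A1 were AT3G23190, the glycerol-3-phosphate dehydrogenase gene GPDHC1, AT5G12420, the nitrate transporter gene NRT1.7 and the sulfate assimilation gene APR3, at r of 0.995 to 0.997. All 5 were themselves called lower in myb68 myb84 (log2 fold changes of -0.97 to -0.40, edgeR adjusted p up to 0.00482), so these r values carry the genotype difference. Nearest to CYP86B1 were IGMT5, ZW9, PELPK2, WRKY20 and SCPL12 (r of 0.987 to 0.992), and nearest to CYP86A8, the cutin member with the highest mean CPM over all 6 libraries, were BRL2, AT3G51330, AT3G06670, SEC1A and WRKY70 (0.967 to 0.997). Those nearest to CYP86B1 were also called lower, except WRKY20 (edgeR adjusted p = 0.313). Among the members themselves, r was 0.973 for CYP86C3 and CYP86C4 and 0.915 to 0.967 for the pairs of CYP86A1, CYP86B1, CYP86A2 and CYP86A4, and these values carry the genotype difference that the members share.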

How the data were processed

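The 6 deposited files hold raw counts per gene, 1 library each, with no normalization by the authors. Per the submitters' processing notes, Trim Galore, HISAT, featureCounts and DESeq2 were used with the build TAIR10. Their versions, the annotation release, and how strand and multiply mapped reads were handled are not stated in the sources used here. Gene models and sequences were read from RefSeq's TAIR10.1, which lacks 285 of the 32833 identifiers and gives AT5G08250 no symbol (CYP86B2 here).

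Counts were scaled by TMM, filtered with filterByExpr (minimum count 10) and tested in R 4.3.3 with edgeR 4.0.16 (robust quasi-likelihood F test), with genotype as the only term. Each standard error (SE) was taken as the log2 fold change over the root of its F value. Levels are TMM-scaled CPM, given per library or as mean ± SD. Ratios used counts plus 0.5. Poisson intervals and the floor of 3 counts cover counting error only. p-values measure the spread between pools of plants. The members and gene lists were chosen with earlier results of these data known. Named genes are all members, MYB68, MYB84, up to 6 called genes per related list with the smallest adjusted p, listed neighbours of a member, and the 5 genes most like CYP86A1, CYP86B1 and the highest cutin member. Single marker genes, MYB53, ANTR2, PIP1B, ABCG1, ABCG6 and ABCG20 were named after their values were seen.

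Tested on simulated counts for 20941 genes, the edgeR step made 169 calls, of which 13 were unchanged genes, and found 71 of 100 true changes of 1.5-fold and 85 of 100 of 2-fold. Changes were placed only in genes above a low CPM limit, and in fewer genes than were called in the data. CYP86A1, CYP86B1 and CYP86A2 were at 0.685, 0.764 and 0.718 times WT, and the recovery of changes that small was not simulated. Alternatives were other scalings, filters, DESeq2 1.42.0, limma-voom (limma 3.58.1), a replicate block, each library left out and a stricter threshold. Coding sequences were aligned with Biopython 1.88, and exact permutation tests used SciPy 1.17.1.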

Additional observations from a re-analysis of the deposited data

How the results depend on the processing

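With DESeq2 size factors or upper quartiles as the scaling, with a filter at a CPM of 1 in 3 libraries or none, in DESeq2, in limma-voom and with the replicate block, the 8 tested members kept their direction and their call, with CYP86A1 between -0.57 and -0.54 and CYP86C4 between 0.61 and 0.64. Leaving out 1 library at a time moved the members called lower between 2 and 4, with 2 without myb68 myb84 1 or myb68 myb84 2, and those called higher between 0 and 1. It moved the genes of the related lists called lower between 6 and 11, against 13 with all libraries, and those called higher between 1 and 2, against 1. Log2 fold changes ranged from -0.48 to -0.31 for CYP86B1, -0.84 to -0.66 for CYP86A4, -0.11 to 0.0612 for CYP86A8 (0.0545 without WT 3, 0.0612 without myb68 myb84 1), -0.17 to 0.0123 (without WT 2) for CYP86B2 and 0.52 to 0.73 for CYP86C4. At an adjusted p under 0.01, 2 members were called lower and 0 higher, and 6 genes of the related lists lower. The causes were not tested, except that a left-out library leaves fewer samples. With the replicate block 4 members were called lower and 1 higher, as without it. Over all tested genes the numbers showed little sign of pairing. Same-numbered libraries deviated from their group means with r of -0.0059, 0.024 and 0.084, the last being the largest of any combination. In contrast, myb68 myb84 1 and 2 each correlated best with a WT library of another number. With the block, the adjusted p fell for CYP86A1, CYP86B1 (0.00826 against 0.0209) and CYP86A2 (0.00162 against 0.00923). It rose for CYP86A4 (0.0176 against 0.0157) and CYP86C4 (0.0369 against 0.0348). A pairing that affects only some genes is therefore not excluded. The sign of each ratio to CYP86A1 and within pairs stayed with counts plus 5 and without any 1 library. Depth limits CYP86A7 and CYP86C1, which no test covers, and CYP86C1 also carries the overlap given above.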

Other observations

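A further list held 11 other P450 genes that act on fatty acids or on compounds made from them, such as jasmonate. Of these 7 were tested, 1 rose, 0 fell and 6 did not pass, while 4.66% of all tested genes were called higher. The median log2 fold change was 0.27 against -0.0026 over all tested genes. CYP94B3, which hydroxylates the hormone jasmonoyl-isoleucine, averaged 23.8 ± 3.11 CPM in myb68 myb84 and 14.8 ± 1.94 CPM in WT (SD, n = 3 each). It rose by 0.68 on the log2 scale with a standard error of 0.12 (edgeR adjusted p = 0.00395), a call that stayed with any 1 library left out (adjusted p up to 0.0271). CYP86C2, the remaining C gene, had 0 counts in every library, as did CYP704B1. AT3G26130 overlaps CYP86C2 on the opposite strand over 1791 bases. How reads there were counted is not known, so its 0 counts do not establish that the gene is silent.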
